A study of Mus musculus with 6 samples.

Results

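The genes described here were 37 markers of the blood vessels of the brain, 28 of endothelial cells and 9 of mural cells, out of 23462 genes that could be named on the arrays. They were chosen by name, as markers of these cells. Endothelial cells line the vessel wall, and in the brain they form the blood-brain barrier, in which tight junctions seal the cells to each other and transporters carry nutrients, hormones and lipids or pump drugs back into the blood. Mural cells lie on the outside of the endothelium. They are the pericytes of the capillaries, which depend on signals from the endothelium, and the contractile smooth muscle cells of arterioles and larger vessels. After ischemia the barrier leaks, and inflamed endothelium displays adhesion molecules that capture leukocytes.

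The RNA came from microglia, the resident immune cells of the brain, which had been isolated with magnetic beads against the surface receptor P2RY12 after an acute ischemic stroke (AIS) produced by transient occlusion of the middle cerebral artery. Controls were PGC-1α f/f mice, in which a PGC-1α gene tagged with eGFP depends on Cre. The mPGC-1α mice carried the same gene and in addition a tamoxifen-inducible Cre driven by Cx3cr1, a gene that is also active in other macrophages of the brain borders. There were 3 arrays for each genotype, all from animals labelled as male and 10 weeks old, and by the methods of the study both genotypes had received tamoxifen and had undergone AIS. How long after AIS the cells were taken, and whether a sample was 1 mouse or a pool, was not given in the sources used here. If the samples were not separate animals, p-values measure only the spread between these samples, which may be technical.

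A level is the log2 signal of a probe after the 75th percentile of its array was subtracted, and the values of a group are given in the order of replicates 1, 2 and 3. A difference is the mPGC-1α mean less the control mean, with the standard error (SE) of limma. Between 71.0% and 86.5% of the spots of an array were well above background, and precision was limited by having only 3 arrays in a group. Ppargc1a, which encodes PGC-1α, was not higher in the mPGC-1α group, with a difference of -0.31 (SE 0.24) on its brighter probe and -0.41 (SE 0.27) on the other. Cx3cr1, whose locus drives the Cre, measured 4.19, 3.66 and 4.11 in the control samples, against 2.79, 2.36 and 3.14 in the mPGC-1α samples, on the probe that could be tested (difference -1.23, SE 0.24, adjusted p = 0.684). Its other probe, which was not tested because of marked spots, measured 3.96, 4.41 and 3.75 in the control samples, against 3.57, 3.67 and 3.90 in the mPGC-1α samples, and these overlapped. Control array 2 stood apart from the other 5 arrays in the sex-linked genes Xist and Ddx3y. On it Xist, an RNA of the inactive X chromosome, was at -4.83 against -0.57 to -0.11 elsewhere. The Y-linked gene Ddx3y was above background on that array alone. All samples are labelled as male, and in these genes control array 2 matched that label while the other 5 arrays did not. The reason was not tested. Values without control array 2 are therefore given where a call, a sign or the size of a difference turned on it. The third replicates of both genotypes shared a second slide. The 18 microglial markers examined were above background on all 6 arrays, among them P2ry12, Tmem119 and Cx3cr1.

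Most vascular genes gave a signal well above background, as did between 71% and 86.5% of the spots of an array. That share is counted by spot within each array, and not by gene over all arrays. Of the 37 genes, 32 were well above background on every array, including Cldn5, Pecam1 and Acta2, and 3 were above background on none. These 3 were Tek, the receptor of the angiopoietins, Sele, which encodes E-selectin, and Rgs5, a signal regulator that marks pericytes. Cdh5, the cadherin that defines endothelial junctions, was above background only on the 4 arrays of the first slide, at -5.58 and -5.38 on control arrays 1 and 2 and at -5.50 and -5.02 on mPGC-1α arrays 1 and 2. Rgs5 read -6.99, -8.91 and -7.49 in the control samples and -8.81, -8.65 and -7.29 in the mPGC-1α samples, values below background that carry no order. These 4 genes did not pass the filter on dim probes, which left 33 tested genes, 25 endothelial and 8 mural. In RNA from a mixture of cells, fewer cells of a type and less RNA per cell cannot be told apart.

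None of the 33 genes passed an adjusted p of 0.05 in limma, against 0% of the 18222 genes tested. At an unadjusted p of 0.05, 5 of the 33 passed, namely Slco1a4, Ocln and Slco1c1, which were lower in the mPGC-1α group, and Mfsd2a and Pdgfrb, which were higher. Over all tested genes 6.09% passed this limit, 3.41% with a higher and 2.68% with a lower level. For 8 of the 33 genes the groups did not overlap, against 13.4% of all tested genes, with 4 genes above the control arrays (9.95% of all tested genes) and 4 below them (3.44%). The 4 above were Flt1, Mfsd2a, Pdgfrb and Acta2, and the 4 below were Ocln, Abcb1a, Slco1a4 and Slco1c1. For each of these 8 the exact two-sided permutation test gave 0.1, the smallest value that the arrays allow. A difference of at least 2-fold was seen for Pecam1, Slco1a4 and Slco1c1, 3 of the 33 genes, against 3.25% of all tested genes. With the replicate number as a block, 0 of the 33 genes passed an adjusted p of 0.05, against 0.00549% of all tested genes, which was 1 gene with a lower level, and 6 of the 33 passed an unadjusted p of 0.05, the same 5 genes and Pecam1. In all, 22 genes (66.7%) had a higher and 11 a lower mean in the mPGC-1α group, close to the 64.0% of all tested genes with a higher mean. The median difference was 0.11 over the 33 genes and 0.11 over all tested genes, and under quantile normalization they were 0.02 and 0.07.

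**Figure D1:**
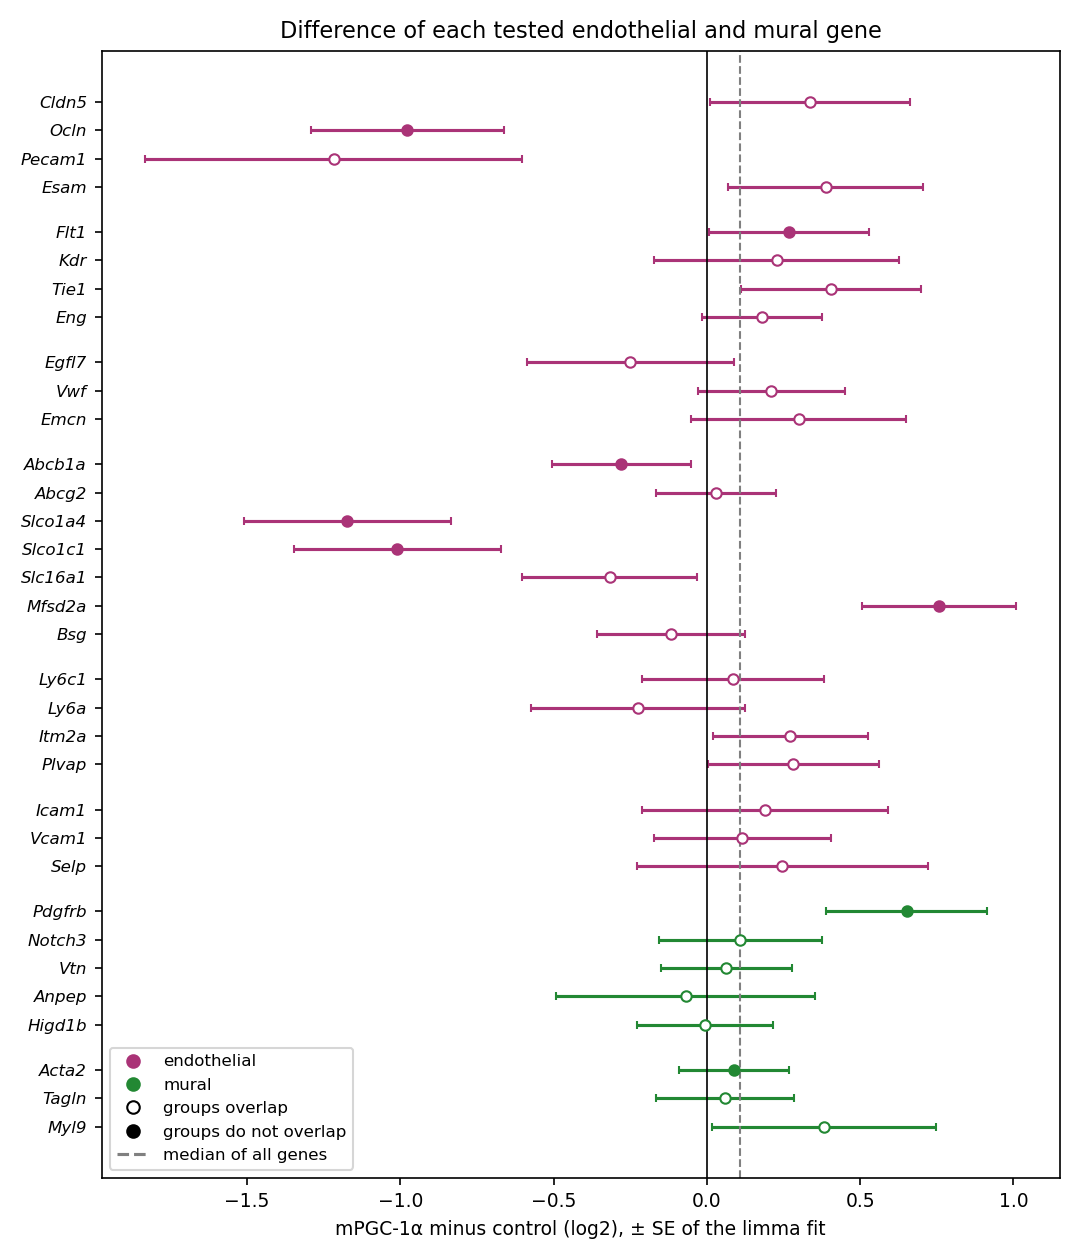
Difference of each of the 33 tested genes, mPGC-1α minus control, on the log2 scale (x axis), with the SE of the limma fit as bars, endothelial genes in purple and mural genes in green, grouped by role. Filled points mark genes whose groups do not overlap, and the dashed line is the median of all tested genes, 0.11; Slco1a4, Slco1c1, Ocln and Pecam1 lie farthest to the left and Mfsd2a and Pdgfrb farthest to the right.

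Among the role groups of the tested endothelial and mural genes, the transporters of the blood-brain barrier had the largest share that separated the genotypes. Of these, 3 of 7 were past the unadjusted limit and 4 of 7 without overlap, against 6.09% and 13.4% of all tested genes. The role groups were set with earlier results of these data known. The median difference of the 7, which include Bsg, a chaperone of a transporter, was -0.28. Slco1a4 encodes an organic anion transporter that exchanges bile salts, steroid conjugates and drugs between blood and brain. Its level measured -0.998, -1.32 and -0.19 in the control samples, against -2.36, -1.71 and -1.96 in the mPGC-1α samples. Every mPGC-1α array lay below every control array, and the control array on the second slide was the highest. The difference was -1.17 (SE 0.34), a 2.25-fold lower signal, with an unadjusted p of 0.00653 and an adjusted p of 0.684 in limma. Within the first slide the difference was -0.87 and within the second -1.77. Without control array 2 it was -1.42 with an adjusted p of 0.0423, in a fit that called 3.07% of all tested genes.

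Slco1c1 encodes the transporter that brings thyroxine into the brain. On its brighter probe the level was 1.80 and 0.99 on control arrays 1 and 2, where array 3 had been marked as an outlier spot and left out, against -0.08, 0.67 and 0.57 in the mPGC-1α samples. The groups did not overlap, and control array 2 lay close to mPGC-1α array 2. The difference was -1.01 (SE 0.34), with an unadjusted p of 0.0166 and an adjusted p of 0.684. When the marked spot was kept, control array 3 had the highest level of the 6, 2.59, and the difference was -1.41. The second probe of Slco1c1 measured -0.67, 0.04 and 0.43 in the control samples, against -1.67, -0.52 and -0.45 in the mPGC-1α samples. The groups overlapped on this probe, and its difference was -0.81 (SE 0.39), with an unadjusted p of 0.0662, and of 0.00496 in the fit blocked by replicate number.

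Mfsd2a encodes the carrier of lysolipids that supplies the brain with docosahexaenoic acid and keeps vesicle traffic through the endothelium low. In contrast to the organic anion transporters, its level was higher in the mPGC-1α group. It measured -1.08, -0.69 and -0.32 in the control samples, against 0.14, -0.07 and 0.11 in the mPGC-1α samples. The mPGC-1α samples lay close together, above all control samples. The difference was 0.76 (SE 0.25), a 1.69-fold higher signal, with an unadjusted p of 0.0139 and an adjusted p of 0.684, and it was 0.92 within the first slide and 0.43 within the second.

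The other 4 transporters differed less. Abcb1a, the drug efflux pump P-glycoprotein, measured -1.25, -1.24 and -1.31 in the control samples, against -1.44, -1.69 and -1.51 in the mPGC-1α samples. The groups did not overlap, but the difference was small, -0.28 (SE 0.23). Abcg2, a second efflux pump, differed by 0.03 (SE 0.20), and its 6 levels lay between 0.22 and 0.41. Slc16a1, which carries lactate and ketone bodies, differed by -0.32 (SE 0.29) without mPGC-1α array 3, where its spot was marked. Its chaperone Bsg differed by -0.12 (SE 0.24) from the 2 unmarked arrays of each group. With the marked spots kept, these differences were -0.27 and -0.24.

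The promoters of the transporters past the unadjusted limit are shown, because Slco1a4 and Slco1c1 lie on the same chromosome and were both lower while Mfsd2a was higher. The sequences are the 250 bases before the start of the gene, read along the strand of the gene from RefSeq (GRCm38.p6), at chr6:141856221-141856470 on the minus strand for Slco1a4, chr6:141524104-141524353 on the plus strand for Slco1c1 and chr4:122961189-122961438 on the minus strand for Mfsd2a. Capitals mark the longest run of bases that Slco1a4 and Slco1c1 share and, in Slco1c1, the letters ACTTCC, which read GGAAGT on the other strand.
Slco1a4: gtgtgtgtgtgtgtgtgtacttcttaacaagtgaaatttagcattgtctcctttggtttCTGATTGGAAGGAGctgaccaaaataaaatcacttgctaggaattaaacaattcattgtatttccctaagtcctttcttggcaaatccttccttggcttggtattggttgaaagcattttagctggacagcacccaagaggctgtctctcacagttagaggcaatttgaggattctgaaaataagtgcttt
Slco1c1: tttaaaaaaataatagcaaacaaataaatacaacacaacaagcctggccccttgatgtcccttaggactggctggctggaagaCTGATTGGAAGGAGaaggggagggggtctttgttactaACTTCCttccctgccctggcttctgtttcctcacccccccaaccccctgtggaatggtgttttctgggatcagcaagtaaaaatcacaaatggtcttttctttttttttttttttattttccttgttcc
Mfsd2a: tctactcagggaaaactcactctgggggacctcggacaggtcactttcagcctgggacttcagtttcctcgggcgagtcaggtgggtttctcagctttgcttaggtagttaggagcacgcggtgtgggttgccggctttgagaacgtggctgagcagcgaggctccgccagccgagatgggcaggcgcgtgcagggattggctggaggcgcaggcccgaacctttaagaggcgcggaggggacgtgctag
The shared run of 14 bases, CTGATTGGAAGGAG, began 191 bases before the start of Slco1a4 and 167 bases before that of Slco1c1. It was held by these 2 of 32851 RefSeq promoters of the same length (0.00609%). Because the run was picked from these 2 promoters, its rarity among the others carries no weight. Whether it bears on the levels of the 2 genes was not tested. The longest run that Slco1a4 and Mfsd2a share had 7 bases and was found in 5.04% of promoters. That of Mfsd2a and Slco1c1 had 8 bases and was found in 1.5%. Shorter runs occur in more promoters, so the shares of runs of unlike length cannot be compared.

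A promoter was found for 26 of the 37 genes. On both strands, 3 sets of letters were searched, AAGGTCA, a core of the sites of the estrogen-related receptors with which PGC-1α cooperates, CTTTGAT, a core of the TCF and LEF factors of Wnt signaling, and GGAAGT, a core of the ETS factors. Of the 26 genes, 2 held AAGGTCA, namely Emcn and Abcg2, 2 held CTTTGAT, namely Egfl7 and Selp, and 9 held GGAAGT. The shares over all promoters were 4.08%, 3.21% and 19.7%. These shares are counted by promoter, while a gene with several starts was counted if any of them matched, so the counts are not strictly alike. Of the 3 promoters printed above, GGAAGT was found in that of Slco1c1 alone, on the opposite strand, 129 bases before the start. These matches describe letters and not binding sites.

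Slco1a4 belongs to a cluster of closely related transporter genes, and its neighbours were examined after its values had been seen. Slco1a5, a near relative, measured -1.77, -1.15 and -0.79 in the control samples, against -2.88, -1.92 and -2.52 in the mPGC-1α samples. Like Slco1a4 it had no overlap between the groups, and its difference was -1.20 (SE 0.35, adjusted p = 0.684). Slco1a1 differed by 0.33 (SE 0.26). Slco1a6 was above background on no array and Slco1b2 on 4. Whether the probes of Slco1a4 and Slco1a5 also bind each other's RNA cannot be told apart here.

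**Figure D2:**
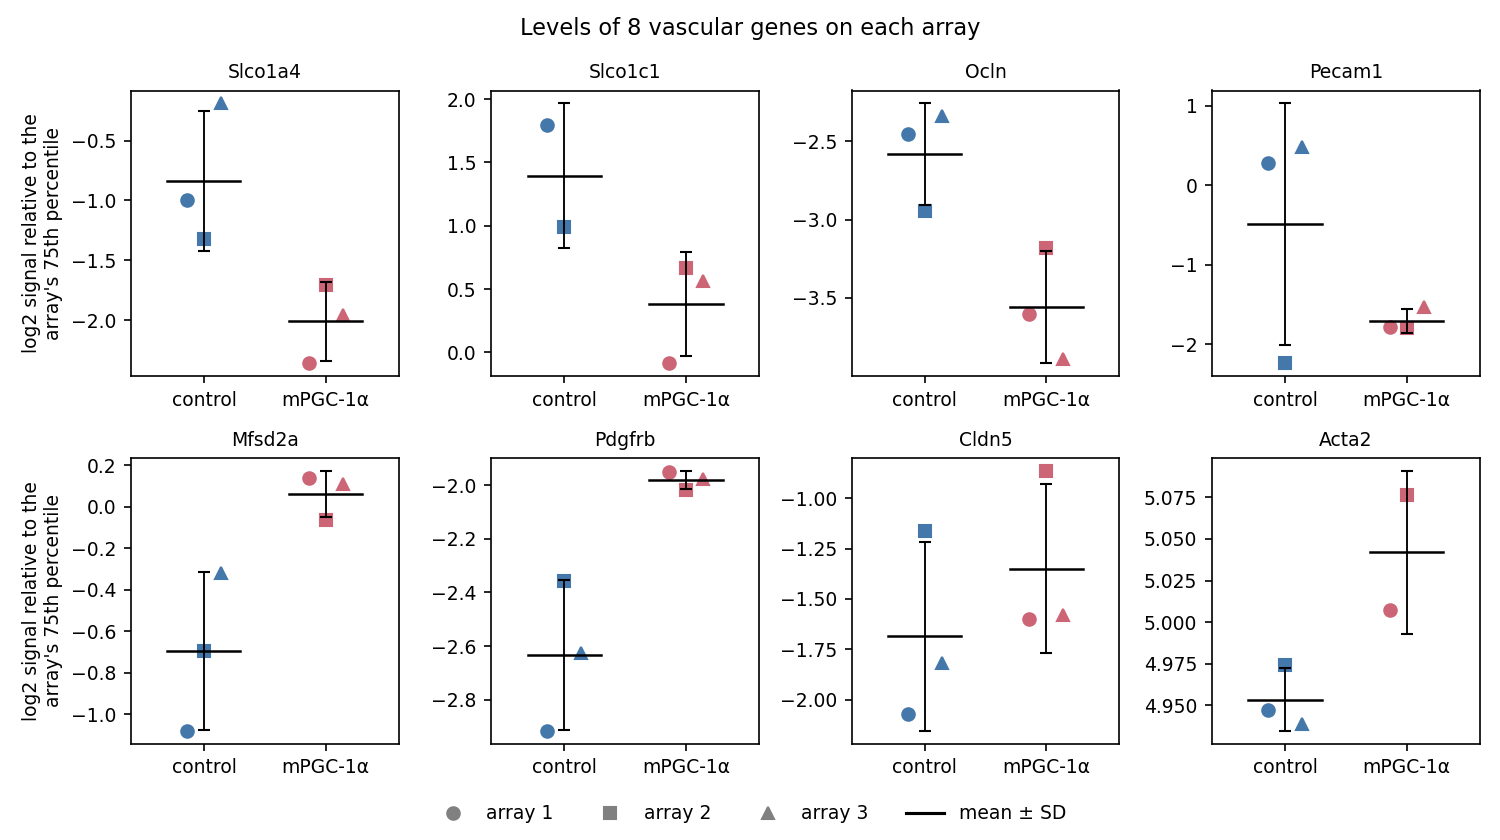
Levels of 8 endothelial and mural genes on each array, as log2 signal relative to the 75th percentile of the array (y axis, with its own range for each gene), control in blue and mPGC-1α in red, with circles, squares and triangles for arrays 1, 2 and 3 and lines for the mean ± SD of the arrays shown. Slco1a4, Slco1c1 and Ocln lie lower and Mfsd2a and Pdgfrb higher in the mPGC-1α group without overlap, Cldn5 overlaps, Acta2 differs by 0.09, and the control arrays of Pecam1 fall apart into 2 high and 1 low.

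The genes of endothelial junctions and adhesion differed in both directions. Ocln encodes occludin, a membrane protein of tight junctions that epithelia express as well. Its level measured -2.46, -2.95 and -2.34 in the control samples, against -3.60, -3.18 and -3.89 in the mPGC-1α samples. All mPGC-1α arrays lay below all control arrays. The difference was -0.98 (SE 0.32), a 1.97-fold lower signal, with an unadjusted p of 0.0122 and an adjusted p of 0.684, and it was -0.69 within the first slide and -1.55 within the second. Without control array 2 it was -1.16 with an adjusted p of 0.0643.

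Cldn5 encodes claudin-5, the main sealing protein of endothelial tight junctions. It measured -2.07, -1.16 and -1.82 in the control samples, against -1.60, -0.86 and -1.58 in the mPGC-1α samples. Array 2 was the highest of both groups, and the groups overlapped, with a difference of 0.34 (SE 0.33, adjusted p = 0.835). Esam, an adhesion molecule of endothelial junctions and platelets, differed by 0.39 (SE 0.32). Both had higher means in the mPGC-1α group, within the spread of the arrays. These differences were 0.60 and 0.59 without control array 2, with adjusted p-values of 0.260 and 0.269 in limma.

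Pecam1 encodes CD31, an adhesion molecule of endothelial junctions that platelets and leukocytes also carry. It measured 0.28, -2.24 and 0.49 in the control samples, against -1.79, -1.80 and -1.53 in the mPGC-1α samples. Control array 2 lay below every other array, and control arrays 1 and 3 lay far above them. The difference over all arrays was -1.22 (SE 0.62), with an unadjusted p of 0.0783 and an adjusted p of 0.715, and the groups overlapped. In the fit blocked by replicate number the unadjusted p was 0.0156 and the adjusted p 0.263. Within the first slide it was -0.82 and within the second -2.02. Without control array 2 it was -2.09 with an adjusted p of 0.00132 in limma. Leaving out that array called Pecam1 and Slco1a4, where 3.07% of all tested genes were called, and Slco1c1 and Bsg could not be fitted without it.

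The 4 tested receptors of angiogenic signals had higher means in the mPGC-1α group, but none passed the unadjusted limit. Flt1 and Kdr, the receptors of vascular endothelial growth factor, differed by 0.27 (SE 0.26) and 0.23 (SE 0.40). Flt1 measured -3.04, -3.25 and -3.08 in the control samples, against -2.75, -2.84 and -2.97 in the mPGC-1α samples, which did not overlap. The difference of Kdr changed sign between the slides, at -0.36 within the first and 1.41 within the second, and it was 0.44 without control array 2. Tie1, a partner of the angiopoietin receptor, differed by 0.40 (SE 0.29), and Eng, a coreceptor for transforming growth factor β, by 0.18 (SE 0.20). The difference of Tie1 was 0.59 without control array 2.

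The secreted and surface glycoproteins and the other surface markers showed no gene past the unadjusted limit. Vwf, the clotting glycoprotein stored by endothelium, differed by 0.21 (SE 0.24), and Emcn, a sialomucin of capillaries and veins, by 0.30 (SE 0.35). The difference of Emcn was 0.55 without control array 2. Egfl7, a secreted protein that guides vessel formation, differed by -0.25 (SE 0.34), and this turned to 0.05 without control array 2. Plvap, which forms the diaphragms of leaky vessels and is scarce in a closed barrier, differed by 0.28 (SE 0.28). Itm2a differed by 0.27 (SE 0.25), Ly6c1 by 0.08 (SE 0.30) and Ly6a by -0.23 (SE 0.35) without mPGC-1α array 3, where its spot was marked, and monocytes or lymphocytes express the Ly6 genes too. With the marked spot kept, the difference of Ly6a was 0.004. The differences of Itm2a, Plvap and Ly6c1 were 0.42, 0.42 and 0.15 without control array 2. Ly6c1 and Ly6a were lowest on mPGC-1α array 1, at 3.62 and 2.32. So were markers of monocytes and macrophages, neutrophils and lymphocytes, with median deviations from their own means of -0.64, -0.97 and -0.58 on that array. All 14 neutrophil markers examined were above background on every array. What part leukocytes had in the levels of the vascular genes was not tested. On the second probe of Ly6c1 the difference was -0.03 (SE 0.39).

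The leukocyte adhesion molecules depended on the probe. Icam1 encodes the ligand of leukocyte integrins and is also made by activated microglia. Its brighter probe measured 3.42, 1.82 and 3.12 in the control samples, against 3.48, 2.60 and 2.85 in the mPGC-1α samples, with control array 2 the lowest and a difference of 0.19 (SE 0.40). The sign turned without control array 2, where the difference was -0.29, and it was -0.02 after normexp background correction with quantile normalization. Its dimmer probe measured 1.59, 1.23 and 1.15 in the control samples, against 2.70, 1.68 and 1.76 in the mPGC-1α samples. On this probe the groups did not overlap, and the difference was 0.73 (SE 0.29, unadjusted p = 0.0332, adjusted p = 0.686).

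Vcam1, the ligand of the integrin VLA-4, differed by 0.11 (SE 0.29) on its brighter probe, from which mPGC-1α array 3 was left out as a marked spot. With that spot kept the difference was 0.34, and it was 0.32 in the fit blocked by replicate number. Its dimmer probe measured 0.38, -1.21 and 0.85 in the control samples, against -0.98, -0.97 and -1.09 in the mPGC-1α samples. The order of the arrays was thus like that of Pecam1, with control array 2 the lowest of the 6 and control arrays 1 and 3 above the rest. The difference on this probe was -1.02 (SE 0.46, adjusted p = 0.699) with overlap, and -1.62 with an adjusted p of 0.00444 without control array 2. The blocked fit gave an unadjusted p of 0.0160. Selp, or P-selectin, which platelets also store, differed by 0.25 (SE 0.48) on its brightest probe and by -0.10 and -0.16 on the other probes. The difference on the brightest probe was 0.03 without control array 2. What sets these probes and control array 2 apart was not tested.

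**Figure D3:**
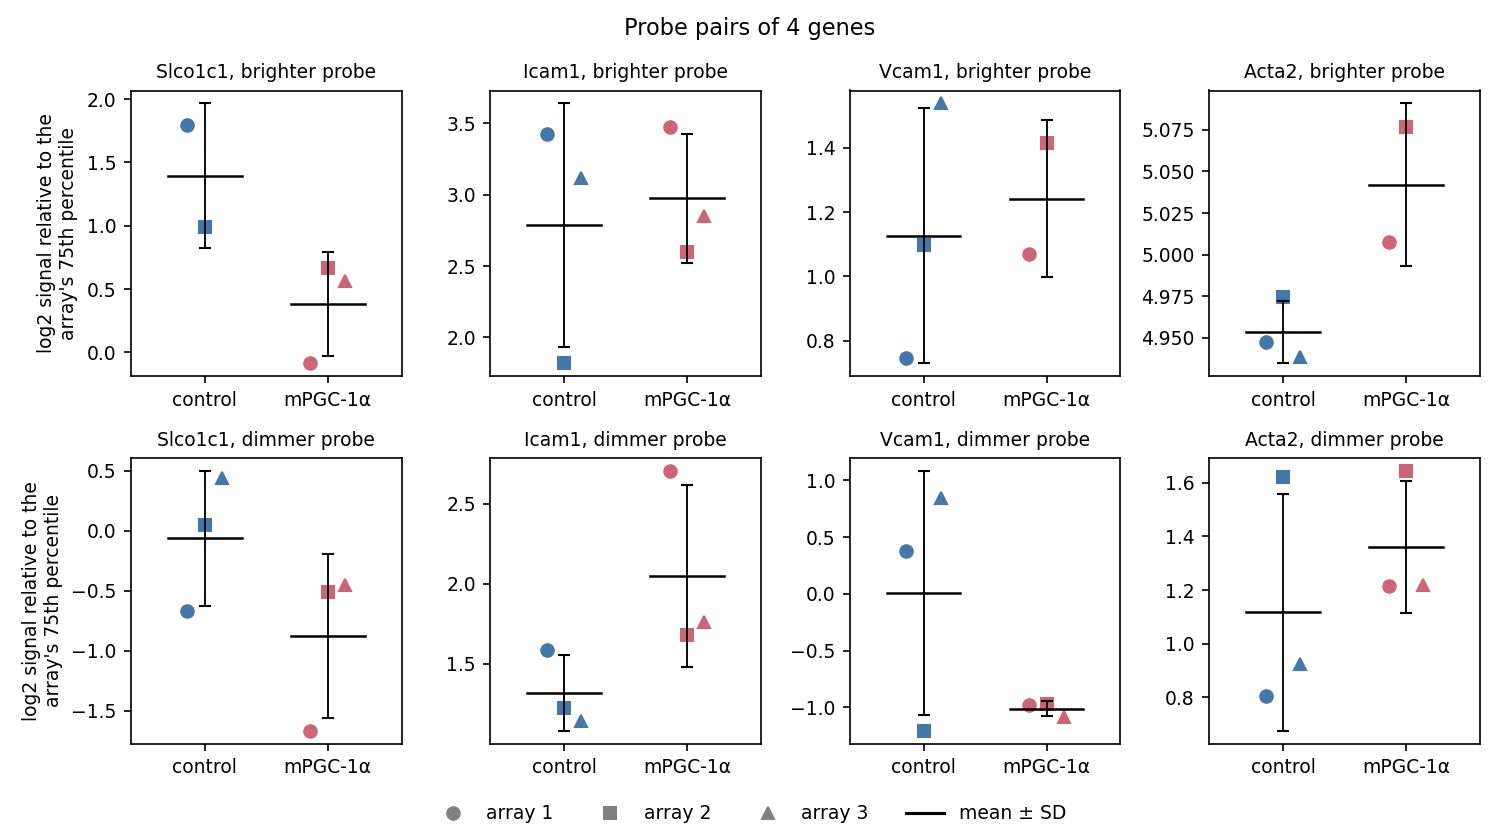
Levels of 4 genes with more than 1 tested probe, the brighter probe above and the dimmer below, as log2 signal relative to the 75th percentile of the array (y axis, with its own range in each panel), with circles, squares and triangles for arrays 1, 2 and 3 and lines for the mean ± SD of the arrays shown. Both Slco1c1 probes are lower in the mPGC-1α group, Icam1 is separated only on its dimmer probe, and the dimmer Vcam1 probe splits the control arrays at -1.21 against 0.38 and 0.85.

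Among the mural genes, Pdgfrb was the only one past the unadjusted limit. It encodes the receptor through which endothelial PDGF-B recruits and maintains pericytes. Its level measured -2.92, -2.36 and -2.63 in the control samples, against -1.95, -2.02 and -1.98 in the mPGC-1α samples. The mPGC-1α arrays lay within a narrow band above all control arrays. The difference was 0.65 (SE 0.26), a 1.57-fold higher signal, with an unadjusted p of 0.0339 and an adjusted p of 0.686, and it was 0.65 within each slide. Without control array 2 it was 0.79 with an adjusted p of 0.0971.

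The other pericyte genes lay close to no difference. Notch3, the receptor of smooth muscle cells and pericytes for Notch ligands, differed by 0.11 (SE 0.27). Vtn, which encodes vitronectin, differed by 0.06 (SE 0.21), and Higd1b, a mitochondrial protein of pericytes, by -0.01 (SE 0.22). Anpep, the aminopeptidase CD13, which myeloid cells also carry, differed by -0.07 (SE 0.42) and was above background on 5 arrays. For these 4 genes the SE was as large as the difference or larger. Without control array 2 the difference of Notch3 was 0.30 and that of Vtn 0.11, and the signs of Higd1b and Anpep turned, to 0.12 and 0.04.

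Of the contractile genes, Acta2 and Tagln differed little between the genotypes, while the difference of Myl9 was about as large as its SE. Acta2, smooth muscle actin, was at 4.95, 4.97 and 4.94 in the control samples, against 5.01 and 5.08 in the first and second mPGC-1α samples, while the spot of the third was marked. The groups did not overlap, yet the difference was only 0.09 (SE 0.18), and it changed sign to -0.15 under quantile normalization. A dimmer probe of Acta2 overlapped, with a difference of 0.24 (SE 0.26). Tagln, the actin-binding protein transgelin, differed by 0.06 (SE 0.23), and Myl9, a light chain of myosin, by 0.38 (SE 0.37). Leaving out control array 2 gave Tagln a difference of 0.28 and Myl9 one of 0.65. Quantile normalization also turned the sign of Tagln, to -0.10, of Vtn, to -0.004, and of Ly6c1, to -0.10.

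**Figure D4:**
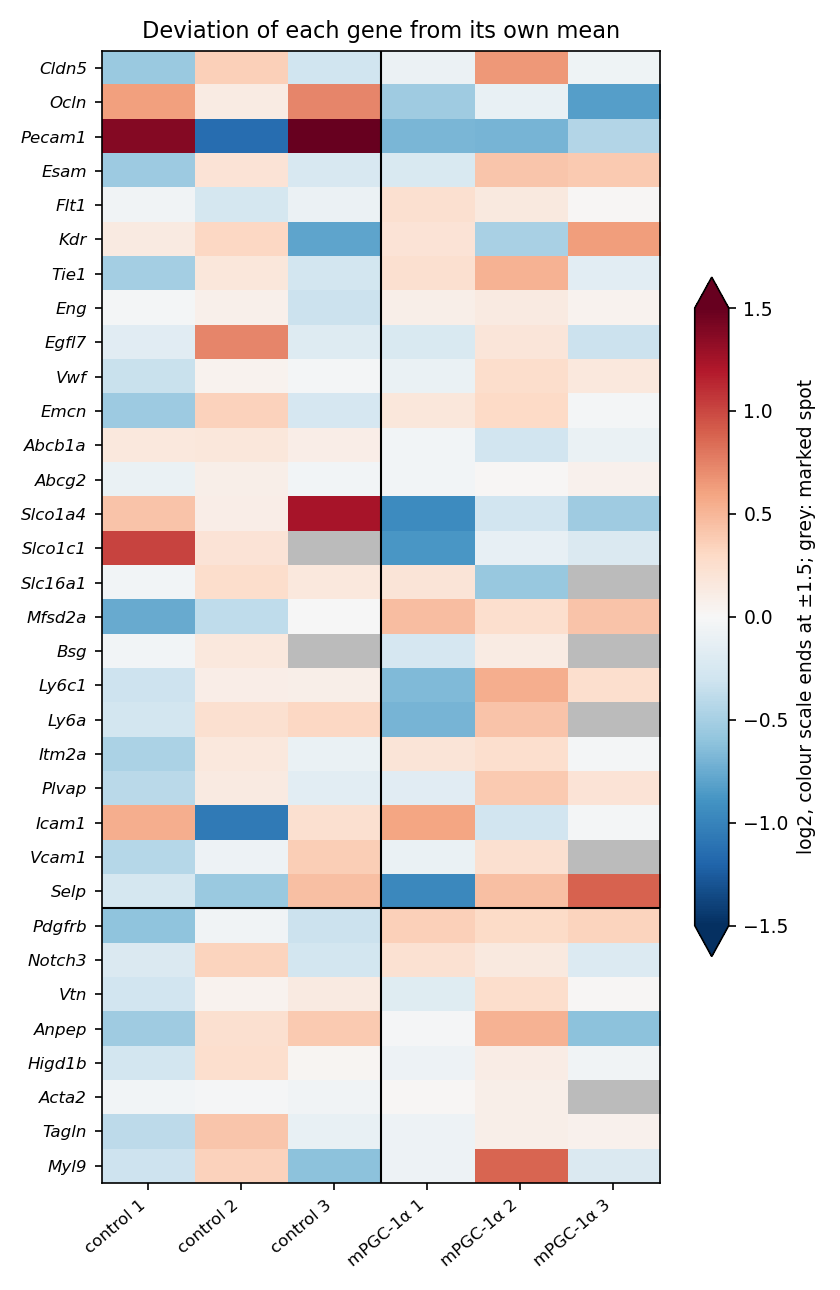
Deviation of each of the 33 tested genes from its own mean over the 6 arrays, on the log2 scale (colour, blue low and red high, ending at ±1.5), with endothelial genes above and mural genes below the horizontal line and grey for spots marked as outliers. Slco1a4, Slco1c1 and Ocln turn from red to blue between the groups, Mfsd2a and Pdgfrb from blue to red, Pecam1 and Icam1 are blue on control array 2, and most other genes vary as much within a group as between the groups.

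Endothelial and mural genes were then set against each other. The median difference was 0.18 over the 25 endothelial and 0.08 over the 8 mural genes, and under quantile normalization they were 0.07 and -0.005. With the probes of each gene averaged the endothelial median was 0.03, and without mPGC-1α array 3 it was 0.0057. The mural median was 0.20 without control array 2. Over all 6 arrays the endothelial median was 0.11 higher than the mural one, and the median over all tested genes was 0.11. Higher means were seen for 16 of 25 endothelial genes (64%) and 6 of 8 mural genes (75%), against 64.0% of all tested genes. By array, the median deviation of the endothelial genes from their own means measured -0.16, 0.14 and -0.03 in the control samples, against -0.10, 0.18 and -0.03 in the mPGC-1α samples. For the mural genes the values were -0.30, 0.25 and -0.08 for control and -0.05, 0.20 and -0.05 for mPGC-1α. Both lists were lowest on control array 1 and high on array 2 of each group, and in neither did the genotypes separate. The corresponding medians of all tested genes were -0.20, 0.13 and -0.10 for control and 0.06, 0.10 and -0.01 for mPGC-1α. The endothelial median passed below the mural one on the first slide alone, at -0.06, with the probes of each gene averaged, at -0.06, without control array 2, at -0.05, and without mPGC-1α array 3, at -0.15.

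Further genes of the vessel wall were examined next. Of 40 further endothelial genes 36 were tested, and 1 passed the unadjusted limit with a higher and 1 with a lower level, a share of 5.56% against 6.09% of all tested genes, with a median difference of 0.19. Notch4, an endothelial Notch receptor, measured 2.83, 2.67 and 2.73 in the control samples, against 3.17, 3.04 and 3.66 in the mPGC-1α samples. The difference was 0.55 (SE 0.21, unadjusted p = 0.0259). S1pr1, the receptor of sphingosine-1-phosphate, measured -0.68, -0.73 and -0.67 in the control samples, against -1.23 and -1.38 on mPGC-1α arrays 2 and 3, while the spot of array 1 was marked. The difference was -0.61 (SE 0.25, unadjusted p = 0.0406, and 0.0731 in the blocked fit). With the marked spot kept, mPGC-1α array 1 lay above all control arrays at -0.54, and the difference was -0.36. Cd34, a sialomucin, differed by 0.54 (SE 0.25) without the marked spot of control array 3 and by 0.30 with it. Foxf2, a transcription factor of brain pericytes and endothelium, differed by 0.96 (SE 0.47), with an unadjusted p of 0.0696, and 0.0321 in the blocked fit. Foxf2 was above background on 5 arrays. Without control array 2 its difference was 1.48 with an adjusted p of 0.0437, the lowest over the alternatives. That fit called 3.07% of all tested genes. Of 24 further mural genes 18 were tested, 17 of them with a higher mean (94.4%, against 64.0% of all tested genes) and a median difference of 0.30, and none passed the unadjusted limit. The smallest p-values belonged to the transcription factor Foxc1, which differed by 0.60 (SE 0.27), Cnn1, or calponin, by 0.44 (SE 0.23), the myosin kinase Mylk by 0.39 (SE 0.22) and the estrogen receptor Gper1 by 0.63 (SE 0.36). In the blocked fit, Foxc1, Cnn1 and Mylk passed the unadjusted limit, with p-values of 0.0397, 0.0461 and 0.0462, and adjusted p-values of 0.388 to 0.412. Leaving out control array 2 gave these genes differences of 0.77, 0.66 and 0.57, while that of Gper1 became smaller.

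Of 12 vascular ligands 11 were tested. Jag1, a Notch ligand, differed by 0.98 (SE 0.27, unadjusted p = 0.00776) from 2 unmarked arrays per group, at -0.15 and -0.24 on control arrays 1 and 3 and at 0.70 and 0.87 on mPGC-1α arrays 1 and 2. With the marked spots kept, control array 2 was the highest of the 6 at 1.23 and mPGC-1α array 3 was at 0.03, so that the groups overlapped and the difference was 0.25. In the fit blocked by replicate number the difference was 0.85 with an unadjusted p of 0.0666. Pdgfd, a ligand of the receptor encoded by Pdgfrb, measured -3.72, -4.64 and -2.91 in the control samples, against -5.44, -5.40 and -4.37 in the mPGC-1α samples. These overlapped, and the difference was -1.31 (SE 0.49, unadjusted p = 0.0255). Without control array 2 the groups did not overlap, and the difference was -1.76. The peptide ligand Apln differed by 0.31 (SE 0.32) and Angpt2, the angiopoietin of remodeling vessels, by 0.29 (SE 0.31). None of these ligands passed an adjusted p of 0.05 over all 6 arrays, and the lowest over the alternatives was 0.0478, for Jag1.

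Markers of neurons, oligodendrocytes and astrocytes had larger median differences between the genotypes than the vascular lists. Mean levels were higher in the mPGC-1α group for 17 of 18 neuronal, 14 of 16 oligodendrocyte and 14 of 14 tested astrocyte markers, with median differences of 0.81, 0.87 and 0.89. The summed signal of the markers was taken in multiples of the 75th percentile of the array, with marked spots kept. For neurons it ranged from 47.3 to 75.4 on the control and from 73.5 to 89.0 on the mPGC-1α arrays. For oligodendrocytes it ranged from 17.5 to 26.1 and from 31.5 to 46.4, and for astrocytes from 19.1 to 30.8 and from 34.2 to 87.4. For the endothelial genes it ranged from 68.6 to 86.8 and from 59.4 to 82.9. For the mural genes it ranged from 43.7 to 52.4 and from 47.8 to 52.1, so that the groups overlapped in both vascular lists. The highest levels were those of Snap25 among the neuronal markers, 5.22 to 6.10, and of Acta2 among the mural genes, 4.94 to 5.08. The neuronal and mural sums rest largely on them. Likewise, the endothelial sum rests largely on Bsg, 4.11 to 4.75, Ly6c1, 3.62 to 4.83, Ly6a, 2.32 to 3.58, and Icam1, 1.82 to 3.48. It therefore says little about the dimmer endothelial genes, such as Cldn5 and Flt1. No marker of neurons, oligodendrocytes or astrocytes was below background on every array. What part these cells had in the levels of Mfsd2a and Pdgfrb was not tested.

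**Figure D5:**
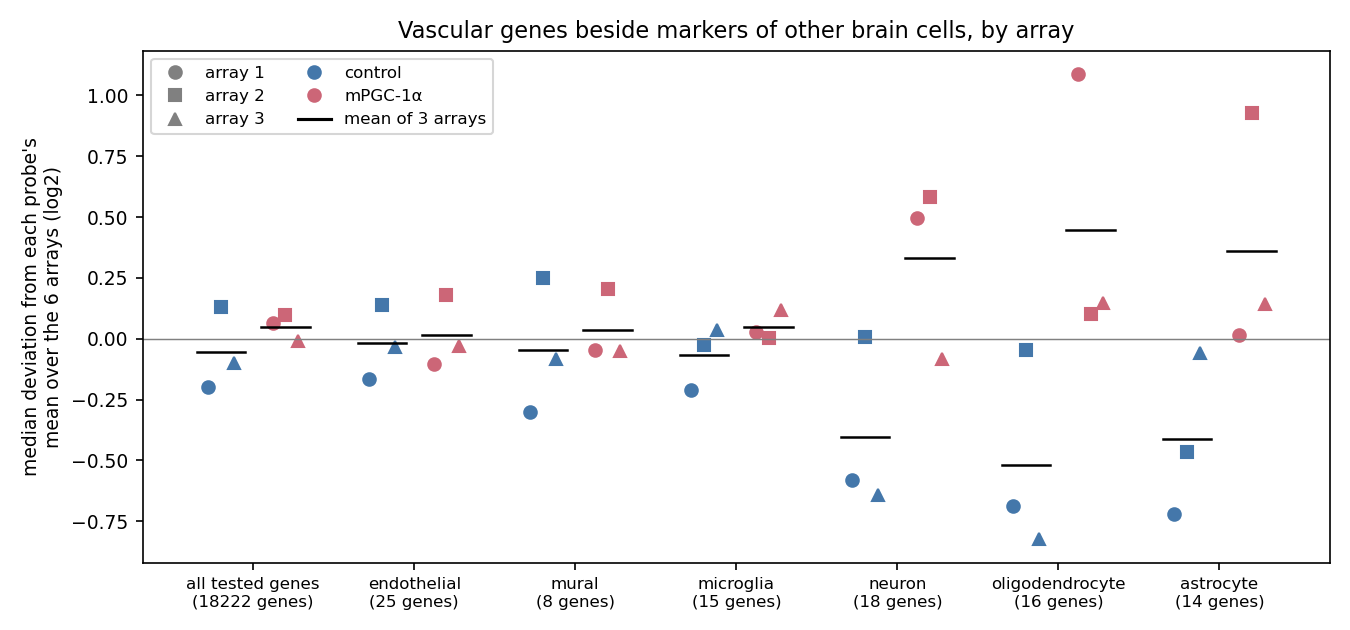
Median deviation of the genes of each list from their own means over the 6 arrays, on the log2 scale (y axis), for all tested genes, endothelial, mural, microglial, neuronal, oligodendrocyte and astrocyte genes (x axis), control in blue and mPGC-1α in red, with circles, squares and triangles for arrays 1, 2 and 3 and lines for the mean of the 3 arrays. Endothelial and mural genes stay between -0.30 and 0.25 and overlap between the genotypes, while oligodendrocyte and astrocyte markers lie lower on every control array than on any mPGC-1α array.

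Markers of the choroid plexus and ependyma, whose epithelium makes cerebrospinal fluid and also expresses occludin and organic anion transporters, were mostly lower in the mPGC-1α group, as were Slco1a4, Slco1c1 and Ocln. Of 11 such markers 8 were tested, and 6 had a lower mean in the mPGC-1α group, with a median difference of -0.45. Their summed signal ranged from 21.6 to 36.2 on the control and from 14.7 to 27.8 on the mPGC-1α arrays, which overlapped. The differences of the 8 ranged from -1.01 to 0.39. The lowest was that of Kcnj13, a potassium channel of this epithelium. It measured 2.29, 2.84 and 2.89 in the control samples, against 1.11, 2.20 and 1.69 in the mPGC-1α samples. The median deviation of the list was highest on control array 2, at 0.54. Among the control arrays, Slco1a4, Ocln and the brighter Slco1c1 probe were lowest on array 2. Tmem212 was above background on no array. What part this epithelium had in the 3 vascular genes was not tested.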

How the data were processed

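Microglia of 3 PGC-1α f/f (control) and 3 mPGC-1α samples, grouped as their labels state, were hybridized to single-colour Agilent arrays, 1 array each. Spot intensity values deposited by the authors are linear, background-subtracted by Feature Extraction 11.5.1.1 and not normalized between arrays, and other columns hold flags. Deposited log2 values of the series matrix, which the authors had normalized in GeneSpring, cover 46731 probes and served as an alternative. The labels name both Cy3 and Cy5, and the single channel in the files was used.

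The log2 processed signal was expressed relative to the 75th percentile of its array over all 56605 non-control probes (R 4.3.3; tables were read with data.table, version 1.17.8). Spots marked as outliers were mostly bright, so they counted toward the percentile, but they were left out of the levels. They were kept in the summed signals of lists. Testing required a signal well above background on every unmarked array of 1 group or both, and at least 2 values per group, which left 40745 probes. RefSeq accessions named 33767 of all probes, and a gene is represented by its brightest tested probe. Differences were fitted in limma 3.58.1 (lmFit, then eBayes with intensity trend, two-sided, Benjamini-Hochberg over all tested probes), beside the exact permutation test over 20 assignments. The procedure was tested on simulated data.

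Levels per array are given for genes with an unadjusted p under 0.05, or no overlap and a difference of at least 1, for Cldn5, Pecam1, Cdh5, Pdgfrb, Rgs5 and Acta2, and, chosen after their values were seen, for others where a sentence turns on them. Of each further list the 4 smallest p-values are named. Members and lists were chosen with earlier results of these data known. Deviations of arrays from their group mean correlated at 0.171 to 0.247 for the same replicate number in the labels and at -0.337 to 0.035 for different numbers, which met the criterion for pairing (over 0.1 in every pair). Values are from the fit without pairs, and those with the replicate number as a block are given where they changed a call. The blocked limma fit gave lower adjusted p-values for the 5 genes past the unadjusted limit. They were 0.143 for Slco1a4, 0.219 for Mfsd2a, 0.239 for Slco1c1, 0.247 for Ocln and 0.381 for Pdgfrb. Other normalizations, filters, blocks and leaving out each array were tried.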

Additional observations from a re-analysis of the deposited data

How the results depend on the processing

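Over the alternatives run, 19 of the 33 tested genes kept the sign of their difference and 14 changed it at least once. Slco1a4, Slco1c1, Ocln and Pecam1 stayed lower and Mfsd2a and Pdgfrb higher wherever they could be fitted; Slco1c1 could not be without control array 1 or 2 or with all arrays required above background. With the replicate number as a block, 1 probe was called over all probes and 0 of the 33 genes, and of the genes named it moved Pecam1, Foxf2, Foxc1, Cnn1, Mylk and the dimmer Slco1c1 and Vcam1 probes below an unadjusted p of 0.05 and S1pr1 and Jag1 above it. With this block and a 75th percentile taken without marked spots, an alternative added after seeing the data, 1720 probes and 3 genes were called (Slco1a4 adjusted p = 0.0247, Pecam1 0.0254, Slco1c1 0.0422). Leaving out each array in turn, between 0 and 2102 probes and between 0 and 2 genes were called, all of them without control array 2. The number of genes at an unadjusted p of 0.05 was 5, 2 on the first slide alone and 2 to 5 without each array, lowest without control array 1. The endothelial median was 0.029 with probes of a gene averaged and 0.0057 to 0.21 without each array, lowest without mPGC-1α array 3. The endothelial minus mural difference was -0.056 with probes averaged, -0.064 on the first slide alone and -0.15 to 0.12 without each array. The mural median, 0.08, was -0.005 under quantile normalization. Signal over background limits Cdh5, Tek, Sele and Rgs5, and 3 arrays per group limit the rest.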
